A study of Danio rerio with 7 samples.

Results

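Mitotic kinases, kinetochore proteins and kinesins were examined in whole-animal RNA from 7 adult zebrafish, together with the other genes whose symbols share their prefixes. Members were chosen by a rule on names, set with earlier results of these data known, and 1 symbol was set aside by the rule. A gene entered if its symbol began with cdc, cdk, kif, plk, orc or e2f followed by a digit, with bub1 or bub3, or with cenp or aurk. This gave 77 genes of the 11484 with a named probe, covered by 113 of the 43603 probes, and each gene is read from the probe with the highest mean Cy5 signal. Of the 77, 64 had a probe that was well above background in Cy5 on at least 3 of the 7 arrays and were tested, and the other 13 were not.

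The fish were full siblings of a hybrid strain, labelled as AB crossed with an unknown strain. There were 4 females (numbers 4, 7, 8 and 9) and 3 males (numbers 5, 8 and 9), with no treatment, genotype or further age given in the labels used here, and sex was the only labelled difference. RNA of each fish, labelled with Cy5, was hybridised once, to 1 array of 2 colours, against a common reference made from the same hybrid strain and labelled with Cy3. All values below are log2 ratios of Cy5 over Cy3, so 0 means the level of the reference and a difference of 1 between fish is a doubling. Since the siblings come from 1 family and were homogenised whole, p-values measure the spread between these siblings, and fewer cells of a type cannot be told apart from less RNA per cell.

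Entry into mitosis is driven by cyclin-dependent kinase 1, which the Cdc25 phosphatases switch on and which works beside the Polo and Aurora kinases. Kinetochores, built on centromeric chromatin, tie chromosomes to the spindle, kinesin motors shape the spindle and split the cell, and the anaphase-promoting complex ends mitosis by marking its targets for destruction. Earlier in the cycle, the origin recognition complex and Cdc6 license DNA for replication. In adult fish the gonads, gut, skin and blood-forming tissue hold dividing cells, and growing oocytes store mRNAs of the cell cycle for the cleavage divisions of the embryo.

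Some libraries stood apart on marker genes that are not members. Egg coat and oocyte genes (13 tested) had median log2 ratios of 0.24, -0.34, 0.40 and 0.12 in females 4, 7, 8 and 9, of 0.50 in the library labelled male 5, and of -4.64 and -4.29 in males 8 and 9. Genes of testis somatic cells (4 tested) lay between 0.02 and 0.31 in the females, at 0.12 in the library labelled male 5 and at 1.45 and 1.46 in males 8 and 9. The library labelled male 5 therefore went against its label, and the counts over all members are given with it and without it. The choice to compare without it was made with earlier results of these data known. Values of single roles and genes are mostly given without it. The arrays were scanned in 3 sessions: females 7 and 9 with male 9 in session 1, male 8 in session 2, and females 4 and 8 with the library labelled male 5 in session 3. Cy3 signals of the common reference correlated at 0.997 to 0.999 within a session and at 0.886 to 0.97 between sessions (Pearson, across 9348 probes, which are not independent). Probes well above background in Cy5 made up 29.8% to 65.3% of an array. The 3 lowest were those of session 3: 33.7% and 33.8% in females 4 and 8, and 29.8% in the library labelled male 5. The number of arrays limits the precision.

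Over the 64 tested members, the median log2 ratio was -0.23, -0.03, -0.06 and -0.09 in females 4, 7, 8 and 9. It was 0.01 in the library labelled male 5, -1.21 in male 8 and -0.91 in male 9. Males 8 and 9 were thus below the other 5 fish, while the median of all tested probes lay between 0.01 and 0.08 in each fish. The library labelled male 5 was within the range of the females for 46 members, above it for 15 and below it for 3, and it was above both other males for 49. For cdk9 these counts rest on the other fish alone, as the spots of female 8 and male 9 were left out. This split between 5 fish and 2 runs through the results for the single genes.

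**Figure D1:**
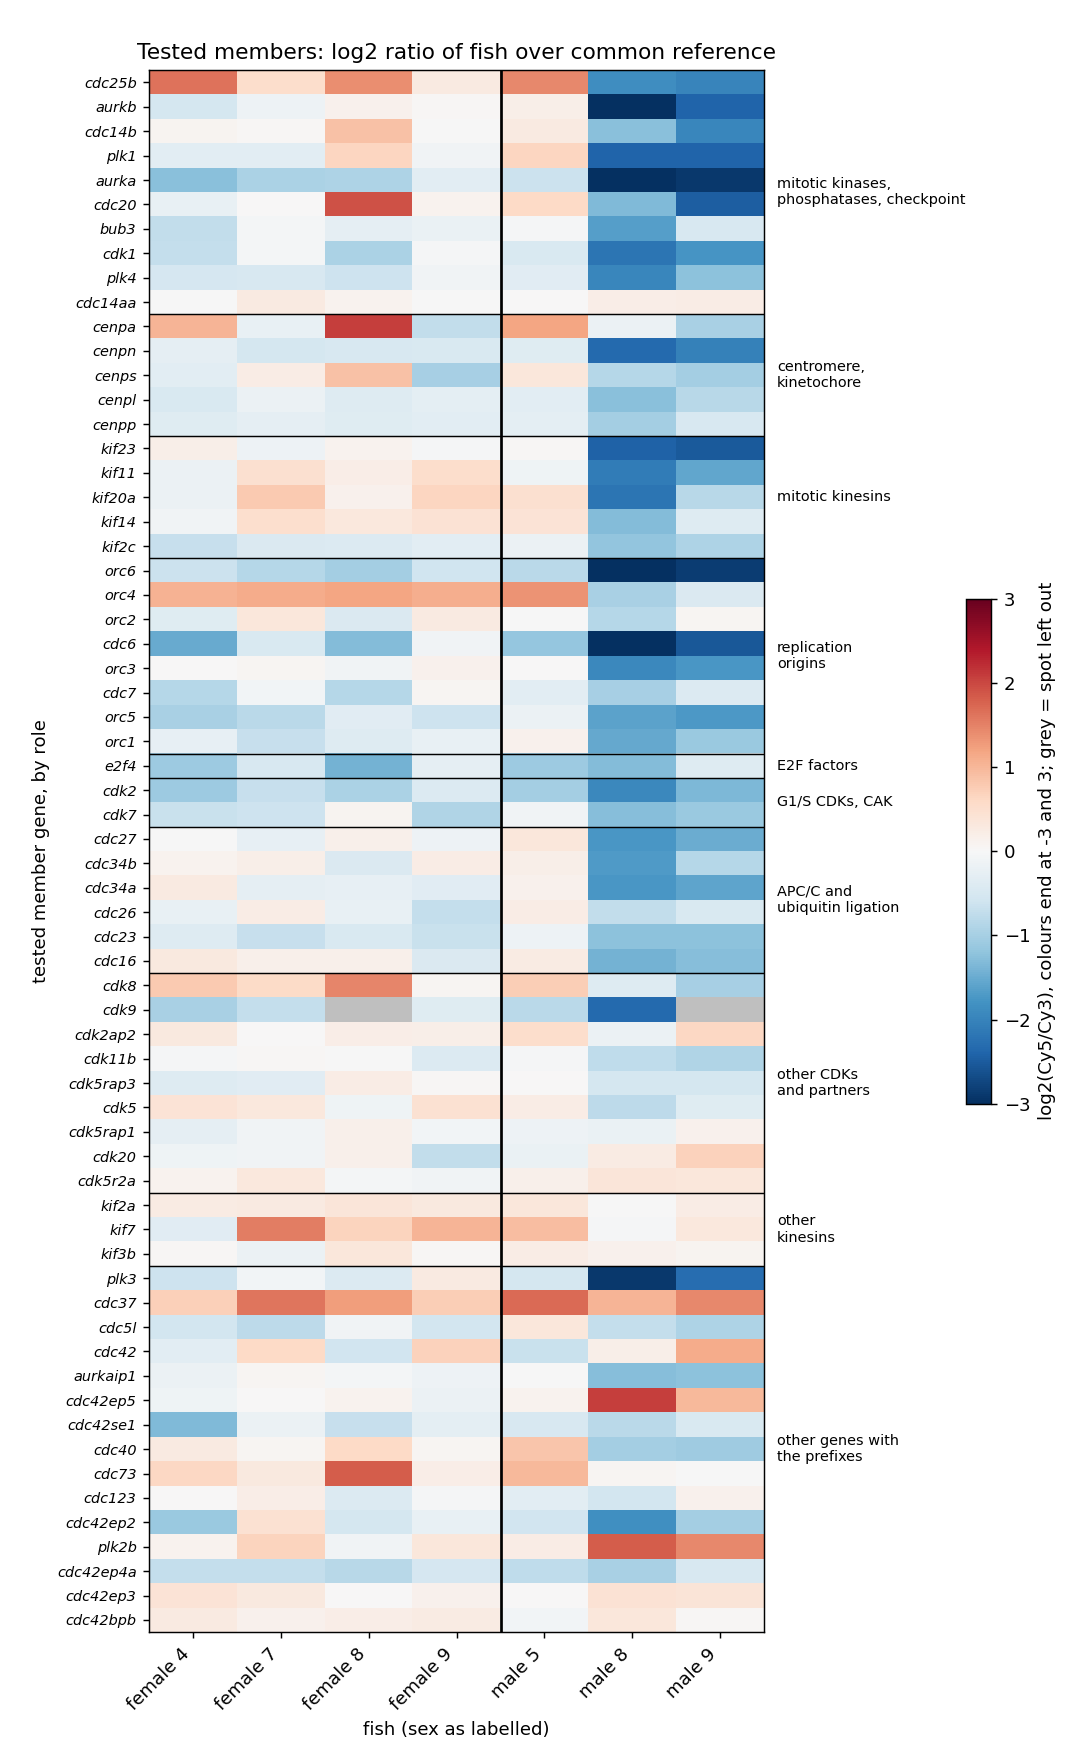
Log2 ratio of Cy5 (the fish) over Cy3 (the common reference) for the 64 tested members, in rows by role, in 4 females (left of the line) and 3 males as labelled; colours end at -3 and 3, and grey marks a spot left out as an outlier. Most kinase, mitotic kinesin, origin and anaphase-promoting complex genes are blue in males 8 and 9 and pale in the females and the library labelled male 5.

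With all 7 fish, the 4 females against the 3 fish labelled male, no member passed a Benjamini-Hochberg adjusted p of 0.05 in limma (background 0%, 0 of 22703 probes), and the smallest adjusted p of a member was 0.539. At an unadjusted p under 0.05 there were 9 of 64 members, 8 higher and 1 lower in females, against 6.72% of all tested probes (5.14% higher and 1.58% lower). The median member difference, female minus male, was 0.47, with 51 of 64 above 0, where the median of all probes was -0.02 and 47.4% of probes were above 0. In no tested member were all 4 females above all 3 males (background 1.92%), and in 1, cdc42ep5, they were all below (background 1.78%).

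Without the library labelled male 5, the 4 females against males 8 and 9, 35 of the 64 members passed: 33 were higher in females (background 13.2%) and 2 were lower (background 12.1%). Over all named genes, read from 1 probe each like the members, 19.2% were higher and 11.8% lower. For both, the probe was picked by its Cy5 signal, which also enters the tested ratio, so the pick was not independent of the values. Of the 23 members with more than 1 tested probe, all probes passed for 5, some for 10 and none for 8. The median difference was 0.85 over the members, -0.05 over all probes and 0.06 over all named genes. Of the 33 higher members, 4 (cenpl, kif2c, orc1 and cdc16) were well above background in neither male 8 nor male 9. They entered the test only through the females and the library labelled male 5, so they were open to testing only where the females are the brighter. With only probes well above background on all 7 arrays, 27 of 49 members were higher and 1 lower, against 21.4% and 16.9% of such probes. All females with a value lay above males 8 and 9 for 39 members (background 23.6%) and below both for 4 (background 25.2%). The 39 count cdk9, for which the spots of female 8 and male 9 were left out as outliers. The 33 higher genes lay mostly in the roles of mitosis and DNA replication, with 21 of the 28 tested members of the first 4 roles below higher, none lower, and a median of 1.64. Among the other 36 tested members 12 were higher and 2 lower, with a median of 0.39. Of the 4 dim genes just named, cenpl, kif2c and orc1 are among the 21 and cdc16 among the 12. The roles were drawn with earlier results of these data known, and plk2b, which was lower, and kif2a were placed outside the first 4. The contrast between the roles is therefore a description and not a test. Differences and adjusted p-values from here on are those of this comparison unless stated, so they leave out 1 of the 3 fish labelled male.

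How far the males' 2 arrays carry this count was measured in several ways. With the scan session as a block, where males and females meet only in session 1, 19 members were higher (background 9.21%) and 2 lower (background 11%). Within that session, females 7 and 9 against male 9 gave 28 higher and 2 lower of 63 (background 12.7% and 16.8%), with a median of 0.66 where the spread of a single male is taken to be that of the females. Leaving out male 8 or male 9 leaves 1 male, with median differences of 0.68 and 0.92, and fewer members passed. Without any single female the count was between 25 and 30 in both directions together, against 18.5% to 21.2% of all probes. Of the 35 members, 16 passed in every fit with 1 fish left out. The share of all probes that passed in every such fit was not worked out, so the 16 are a description only. With median centring in place of loess 10 members passed, all higher, against 3.12% of all probes in both directions. Among the 10 were cdc25b, plk1, aurkb, kif23, cenpn, orc6, orc4, orc1 and cdc27. The headers also give the arrays of sessions 1 and 3 the same slide and positions. With slide and position as a block, a fit added after seeing the data, no member passed in limma (background 0%), and the median difference was 0.72. In that fit 28 members had an unadjusted p under 0.05, but the share of all probes at that level was not worked out.

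**Figure D2:**
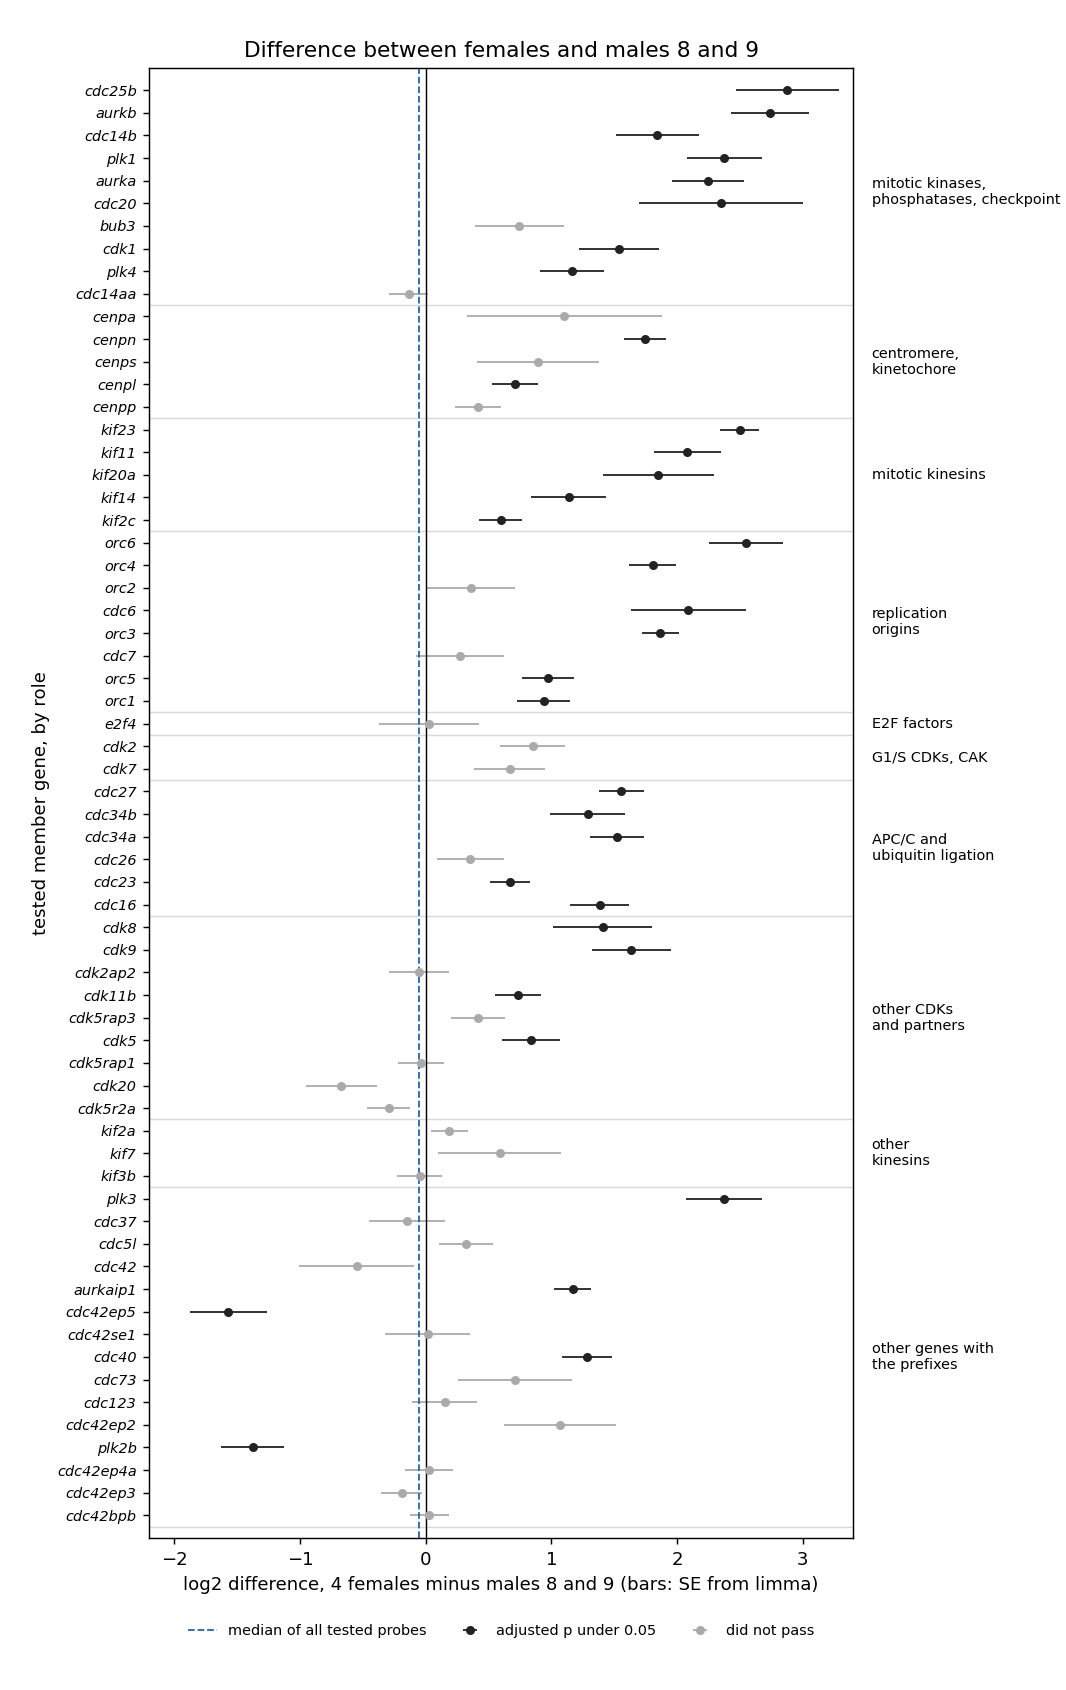
Log2 difference of the 64 tested members, 4 females minus males 8 and 9, by role, with the standard error from limma as bars; dark points passed an adjusted p of 0.05, and the dashed line is the median of all tested probes, -0.05. The highest values are those of cdc25b at 2.88, aurkb at 2.74, orc6 at 2.55 and kif23 at 2.50, and cdc42ep5 and plk2b are the 2 dark points left of 0.

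The kinases, phosphatases and spindle checkpoint genes (10 members, all tested) had a median difference of 2.05, and 8 were higher in females, none lower. The Polo-like kinase genes plk3 and plk2b were not placed in this role and are given further below. For cdc25b, which encodes a phosphatase that activates cyclin-dependent kinases, log2 ratios were 1.64, 0.53, 1.39 and 0.26 in females 4, 7, 8 and 9, 1.45 in the library labelled male 5, and -1.87 and -1.97 in males 8 and 9. All females were above both males, by 2.88 ± 0.41 (SE; limma adjusted p = 0.00508), or 7.35-fold. The Aurora kinase gene aurkb, whose product is the kinase of the chromosomal passenger complex, had -0.53, -0.16, 0.14 and 0.04 in the females, 0.18 in the library labelled male 5, and -3.33 and -2.41 in males 8 and 9. Its difference was 2.74 ± 0.31 (adjusted p = 0.00274), or 6.69-fold, and the groups did not overlap.

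The gene for Polo-like kinase 1, plk1, which acts in spindle assembly and mitotic entry, had -0.31, -0.32, 0.64 and -0.11 in females 4, 7, 8 and 9. It stood at 0.65 in the library labelled male 5 and at -2.40 in both male 8 and male 9, a difference of 2.38 ± 0.30 (adjusted p = 0.00348). The centrosomal Aurora kinase gene aurka was below the reference in every fish: -1.26, -0.94, -0.92 and -0.33 in the females, -0.66 in the library labelled male 5, and -3.34 and -2.89 in males 8 and 9. Again the females were all above both males, by 2.25 ± 0.29 (adjusted p = 0.00362). The master mitotic kinase gene cdk1 had -0.71, -0.06, -0.96 and -0.04 in the females, -0.45 in the library labelled male 5, and -2.19 and -1.77 in males 8 and 9. Its difference was 1.54 ± 0.32 (adjusted p = 0.0167), but without male 8 the adjusted p was 0.0954.

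The gene cdc20 encodes the activator through which the spindle checkpoint holds back the anaphase-promoting complex. On the probe read here, female 8 stood far above her sisters at 1.90, against -0.22, 0.02 and 0.11 in females 4, 7 and 9. On the other tested probes for cdc20 she was at -0.56 and -1.03, within the range of the other females. The probe read here had the library labelled male 5 at 0.59 and males 8 and 9 at -1.32 and -2.47. The difference was 2.35 ± 0.65 (adjusted p = 0.0416), with 3 of 3 probes higher, yet it missed the threshold with the session as a block (0.112) and in 5 of the 6 fits with 1 fish left out, up to 0.202 without male 9. Its Cy3 signal of the reference also moved with the session, at 11.1, 8.95 and 9.52 on the log2 scale in sessions 1, 2 and 3. With the Cy5 signals alone, added after seeing the data, its difference was 3.05 (adjusted p = 0.00261), in a fit where 49.5% of all probes passed. The centriole duplication kinase gene plk4 had -0.51, -0.49, -0.62 and -0.11 in the females, -0.34 in the library labelled male 5, and -1.96 and -1.24 in males 8 and 9. This gave 1.17 ± 0.25 (adjusted p = 0.0192), against 0.0507 with the session as a block and 0.0883 without male 8.

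Another 2 members of the role did not pass. The checkpoint gene bub3 had -0.74, -0.07, -0.26 and -0.21 in females 4, 7, 8 and 9, -0.04 in the library labelled male 5, and -1.66 and -0.47 in males 8 and 9. Male 9 lay within the females' range, and the adjusted p was 0.176. The phosphatase gene cdc14aa, named after its values were seen, was well above background on 1 female and 2 male arrays, and its difference of -0.14 ± 0.15 (adjusted p = 0.557) is a reading near background. Its relative cdc14b, also named after its values were seen, was 1.84 ± 0.33 higher (0.0103; 0.056 without male 9). Only 2 of the 4 tested probes for cdc14b passed, with differences between 0.43 and 1.84.

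**Figure D3:**
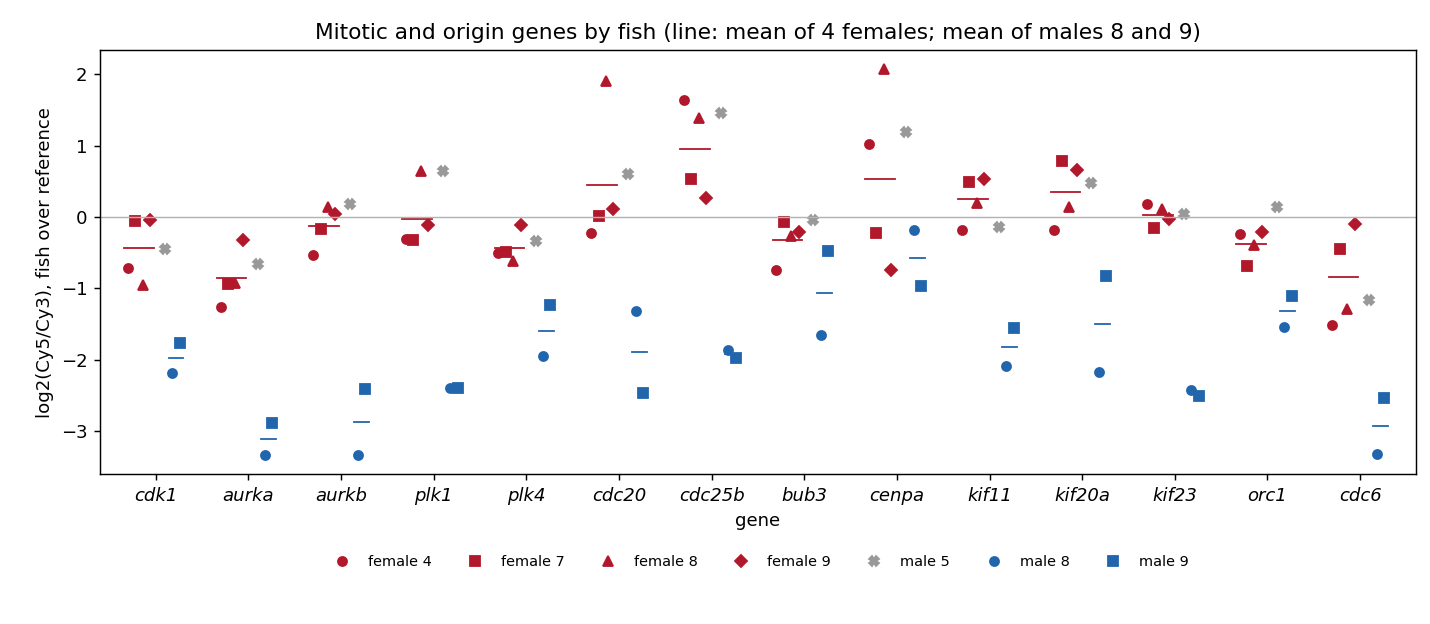
Log2 ratio of 14 mitotic and origin genes in each fish; red symbols are the 4 females, the grey cross the library labelled male 5 and blue symbols males 8 and 9, with lines at the mean of the females and of males 8 and 9. For kif23 the females lie between -0.15 and 0.17 and males 8 and 9 at -2.43 and -2.52, whereas the groups overlap for cenpa and bub3.

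Of the 5 centromere and kinetochore genes, all tested, 2 were higher in females and none lower, with a median difference of 0.90. The gene for the centromeric histone H3, cenpa, varied most: 1.02, -0.22, 2.07 and -0.74 in females 4, 7, 8 and 9, 1.19 in the library labelled male 5, and -0.18 and -0.97 in males 8 and 9. Males overlapped females, and the difference of 1.1 ± 0.78 did not pass (adjusted p = 0.345). The high fish were the 3 of session 3, and the Cy3 signal of the reference for cenpa was 10.8 in session 1, 8.32 in session 2 and 8.45 in session 3 on the log2 scale. With the Cy5 signals alone, added after seeing the data, the difference was 1.19 (adjusted p = 0.0454). In that fit 49.5% of all probes passed, so passing there sets cenpa little apart. By contrast cenpn, whose product binds the centromeric nucleosome, had -0.27, -0.54, -0.47 and -0.47 in the females, -0.37 in the library labelled male 5, and -2.33 and -2.03 in males 8 and 9. It was 1.74 ± 0.16 higher (adjusted p = 0.00189), with both probes called.

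The remaining kinetochore genes were named after their values were seen. The inner kinetochore gene cenpl was 0.71 ± 0.18 higher (adjusted p = 0.0321), but in males 8 and 9 it was not well above background, so its level there has only a bound. It missed the threshold in 5 of 6 fits with 1 fish left out (all but that without male 9), up to 0.144. The inner kinetochore gene cenpp, at 0.42 ± 0.18 with all females above both males, and cenps, at 0.90 ± 0.48, did not pass (adjusted p = 0.147 and 0.227).

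All 5 tested genes of the mitotic kinesin role, which leaves out kif2a, were higher in females. Their median was 1.85, and 3 remained higher with the session as a block. The cytokinesis kinesin gene kif23 had the smallest standard error among them, with 0.17, -0.15, 0.11 and -0.03 in females 4, 7, 8 and 9, 0.03 in the library labelled male 5, and -2.43 and -2.52 in males 8 and 9. The difference was 2.50 ± 0.16 (adjusted p = 0.00104), or 5.65-fold, and it stayed between 2.45 and 2.56 when any single fish was left out. The gene of the motor that pushes spindle poles apart, kif11, had -0.19, 0.49, 0.19 and 0.53 in the females, -0.14 in the library labelled male 5, and -2.10 and -1.56 in males 8 and 9, a difference of 2.08 ± 0.27 (adjusted p = 0.00372).

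Males 8 and 9 differed from each other for kif20a, which also encodes a cytokinesis motor. Females had -0.18, 0.79, 0.13 and 0.66, the library labelled male 5 had 0.47, and males 8 and 9 had -2.18 and -0.83. The difference was 1.85 ± 0.44 (adjusted p = 0.0258) and fell to 1.18 without male 8, with an adjusted p of 0.119; without female 7 or female 9 it also missed the threshold, and only 1 of its 2 probes passed. The cytokinesis kinesin gene kif14 (1.14 ± 0.30, adjusted p = 0.0367; 0.69 and 0.168 without male 8) and the microtubule-depolymerising kif2c (0.60 ± 0.17, 0.0482), named after their values were seen, missed the threshold with the session as a block (0.0704 and 0.13), and kif14 also without female 7, 8 or 9. For kif2c, not well above background in males 8 and 9, no fit with 1 fish left out passed (0.0536 to 0.198). The sixth, kif18a, was well above background in 2 females and no male and was not tested.

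Among the 8 origin genes, all tested, 6 were higher in females and none lower, with a median of 1.39. The small subunit gene of the origin recognition complex, orc6, had -0.65, -0.86, -1.02 and -0.59 in females 4, 7, 8 and 9, -0.81 in the library labelled male 5, and -3.82 and -2.84 in males 8 and 9. That was 2.55 ± 0.29 higher in females (adjusted p = 0.00282), or 5.85-fold. Another subunit gene, orc4, was above the reference in the females, at 1.03, 1.12, 1.19 and 1.09, and in the library labelled male 5, at 1.36, but below it in males 8 and 9, at -0.97 and -0.43. The females varied little (SD 0.07, n = 4), and the difference was 1.81 ± 0.19 (adjusted p = 0.00227).

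The licensing factor gene cdc6 had -1.52, -0.45, -1.30 and -0.10 in the females, -1.17 in the library labelled male 5, and -3.33 and -2.54 in males 8 and 9. It was 2.09 ± 0.46 higher (adjusted p = 0.0199; 0.116 without male 8). For orc1, the largest subunit of the complex, the values were -0.24, -0.70, -0.40 and -0.21 in the females, 0.13 in the library labelled male 5, and -1.54 and -1.11 in males 8 and 9. Its difference of 0.94 ± 0.21 (adjusted p = 0.0217) was lost with the session as a block (0.151) and without male 8, female 4 or female 9, up to 0.111. The probe was well above background in 3 of 4 females and in neither male 8 nor male 9. Its normalized Cy5 signal, not divided by the reference, was at least 1.47-fold higher in females. Named after their values were seen, orc3 (1.87 ± 0.15, adjusted p = 0.00145) and orc5 (0.97 ± 0.21, 0.0181; 0.089 with the session as a block, 0.066 without male 8 and 0.0784 without male 9) were higher, and orc2 (0.36 ± 0.35, 0.49) was not called. The origin-firing kinase gene cdc7 was at 0.27 ± 0.35 (0.604), and 1 of its 3 probes was lower in females, at -0.95, so its probes went opposite ways.

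The E2F transcription factors, which turn on genes of the step from G1 to S phase, were mostly too dim to test. Of 4 members only e2f4, a factor known from mammals mainly as a repressor, was tested: -1.09, -0.49, -1.41 and -0.26 in females 4, 7, 8 and 9, -1.09 in the library labelled male 5, and -1.29 and -0.39 in males 8 and 9. The groups overlapped, at a difference of 0.03 ± 0.40 (adjusted p = 0.969), and its 2 probes differed in sign. The Cy3 signal of e2f4 was 8.69 in session 1 and 9.85 in session 3 on the log2 scale. With the Cy5 signals alone, added after seeing the data, the difference was 0.60 (limma adjusted p = 0.0225). In that fit 49.5% of all probes passed. The repressor gene e2f6 was well above background in 2 females and no male.

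For the kinases of G1 and S phase, cdk2 and the CDK-activating kinase cdk7 were tested, neither passed, and cdk6 was too dim. The values of cdk2 were -1.09, -0.70, -0.95 and -0.42 in the females, -1.01 in the library labelled male 5, and -1.93 and -1.36 in males 8 and 9. All females were above both males, by 0.85 ± 0.26 (unadjusted p = 0.0144, adjusted 0.0546). For cdk7 the values were -0.67, -0.61, 0.08 and -0.90 in the females, -0.11 in the library labelled male 5, and -1.27 and -1.12 in males 8 and 9, a difference of 0.67 ± 0.28 (adjusted p = 0.133). It was not well above background in those 2 males.

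Of the 6 members of the anaphase-promoting complex and of ubiquitin ligation, all tested, 5 were higher in females and none lower, with a median of 1.34. The core subunit gene cdc27 had -0.02, -0.24, 0.16 and -0.15 in females 4, 7, 8 and 9, 0.33 in the library labelled male 5, and -1.76 and -1.49 in males 8 and 9. It was 1.56 ± 0.18 higher (adjusted p = 0.00276), by 1 of its 2 probes. The ubiquitin-conjugating enzyme gene cdc34b had 0.10, 0.17, -0.43 and 0.23 in the females, 0.17 in the library labelled male 5, and -1.69 and -0.85 in males 8 and 9. The difference of 1.29 ± 0.30 (adjusted p = 0.024), by 1 of its 2 probes, was lost with the session as a block (0.0592) and without female 4, female 7, female 9 or male 8, up to 0.116.

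The others of this role were named after their values were seen. The paralog cdc34a was 1.52 ± 0.22 higher (adjusted p = 0.00489), by 1 of its 2 probes, the other at 0.16. The complex's subunit genes cdc16 (1.38 ± 0.24, 0.00885) and cdc23 (0.67 ± 0.16, 0.0252) were higher too, but not with the session as a block (0.0612 and 0.0834). Without male 8 cdc16 had 0.0521, and cdc23 was lost without female 4, female 8, male 8 or male 9, up to 0.0863. The subunit gene cdc26 (0.36 ± 0.27, 0.376) was not called. In males 8 and 9 cdc16 was not well above background, and its normalized Cy5 signal, not divided by the reference, was at least 1.93-fold higher in females.

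The other cyclin-dependent kinases, with genes named after them, work mostly in transcription or in neurons, and they differed less. Of 14 members 9 were tested, 4 were higher and none lower, with a median of 0.42, and none passed with the session as a block. In that fit 20.2% of all probes passed. There 5 had an unadjusted p under 0.05: cdk8, cdk11b and cdk5 above 0, and cdk20 and cdk2ap2 below 0. The share of all probes at that unadjusted p was not worked out, so the 5 are a description only. The Mediator kinase gene cdk8 had 0.79, 0.57, 1.47 and 0.05 in females 4, 7, 8 and 9, 0.75 in the library labelled male 5, and -0.40 and -0.98 in males 8 and 9. It was 1.41 ± 0.39 higher (adjusted p = 0.0431), against 0.08 with the session as a block, and was lost without female 4, female 7, male 8 or male 9, up to 0.197. The transcription elongation kinase gene cdk9 had -0.98, -0.72 and -0.37 in females 4, 7 and 9, -0.81 in the library labelled male 5 and -2.33 in male 8, with the spots of female 8 and male 9 left out as outliers.

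The fit for cdk9, 1.64 ± 0.31 (adjusted p = 0.0258), thus rests on 1 male, and without female 7 or female 9 it did not pass (up to 0.069). Named after their values were seen, the neuronal kinase gene cdk5 (0.84 ± 0.23, 0.041) and cdk11b (0.74 ± 0.18, 0.0304) were also higher, each by 1 of its 2 probes (the others at 0.08 and 0.15) and each lost in 5 of 6 fits with 1 fish left out, cdk5 in all but that without female 8 (up to 0.195) and cdk11b in all but that without female 9 (up to 0.116). The lowest value of the role was that of cdk20, at -0.67 ± 0.28 (0.133), with all females below both males. It was well above background in males 8 and 9 but in only 2 of the 4 females, so it is partly a reading near background.

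None of the 3 tested kinesins placed outside the mitotic role passed in limma, 0 had an unadjusted p under 0.05, and their median difference was 0.19. They are transport and ciliary kinesins except for kif2a, a microtubule-depolymerising kinesin like kif2c of the mitotic role. The gene kif2a stayed between 0.26 and 0.37 in the females, at 0.34 in the library labelled male 5, and at -0.02 and 0.23 in males 8 and 9. Although all females were above both males, the difference was 0.19 ± 0.15 (adjusted p = 0.4). The ciliary kinesin gene kif7, which acts in Hedgehog signalling, had -0.33, 1.54, 0.66 and 1.02 in females 4, 7, 8 and 9, 0.93 in the library labelled male 5, and -0.04 and 0.31 in males 8 and 9. Both males lay within the females' wide range (0.59 ± 0.49, adjusted p = 0.423). The kinesin-2 motor gene kif3b, named after its values were seen, was at -0.05 ± 0.18 (0.869).

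A last group took the 17 remaining genes that share a prefix, among them the Polo-like kinase genes plk3 and plk2b. Of the 17, 15 were tested: 3 were higher, 2 lower, and the median difference was 0.03. With 19.2% of all named genes higher and 11.8% lower, these shares were near the background. The stress-responsive Polo-like kinase gene plk3 had -0.62, -0.09, -0.42 and 0.26 in the females, -0.52 in the library labelled male 5, and -2.90 and -2.28 in males 8 and 9. It was 2.37 ± 0.30 higher (adjusted p = 0.00362), or 5.18-fold. The Hsp90 co-chaperone gene cdc37 was above the reference in every fish, at 0.72 to 1.62 in the females, 1.71 in the library labelled male 5, and 1.03 and 1.44 in males 8 and 9, and did not pass (-0.15 ± 0.30, adjusted p = 0.749).

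The 2 lower members belonged to this group. The Cdc42 effector gene cdc42ep5 was near the reference in the females, at -0.14, 0.00, 0.10 and -0.18, and in the library labelled male 5, at 0.10, and was at 2.07 and 0.96 in males 8 and 9. This gave -1.57 ± 0.30 (adjusted p = 0.0135), with 3 of its 4 probes lower in females, and -1.02 without male 8. The gene plk2b, whose mammalian relative is a stress- and activity-induced Polo-like kinase, had 0.12, 0.66, -0.10 and 0.35 in females 4, 7, 8 and 9, 0.23 in the library labelled male 5, and 1.82 and 1.44 in males 8 and 9. The difference was -1.38 ± 0.25 (adjusted p = 0.0106; 0.0645 without male 8), by 1 of its 2 tested probes. With median centring in place of loess neither of the 2 passed, at -0.13 for cdc42ep5 and -0.59 for plk2b. Within the Polo-like family, plk1, plk3 and plk4 were thus higher and plk2b lower in females. The splicing factor gene cdc40 (1.28 ± 0.20, 0.00649) and aurkaip1 (1.17 ± 0.14, 0.0034), whose human counterpart encodes an Aurora A-interacting protein, were higher and were named after their values were seen.

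**Figure D4:**
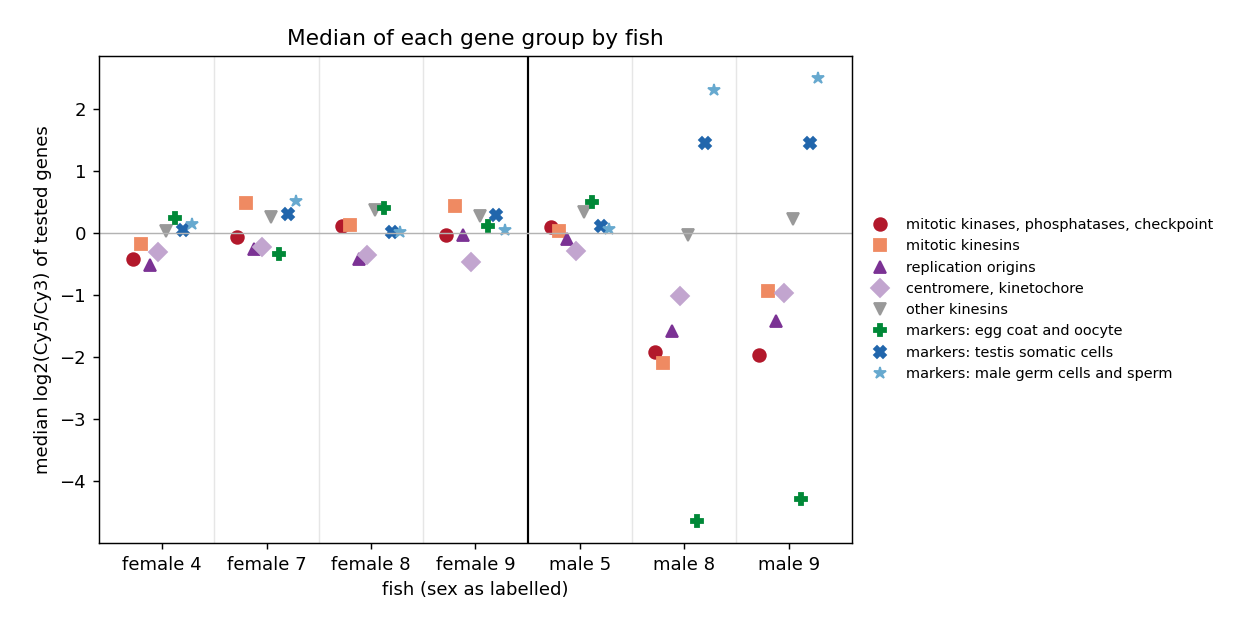
Median log2 ratio of the tested genes of 5 member roles and 3 marker lists in each fish, 4 females left of the line and 3 fish labelled male right of it. Mitotic kinases and mitotic kinesins lie between -0.41 and 0.49 in the females and near 0 in the library labelled male 5, and between -0.93 and -2.10 in males 8 and 9, where egg coat and oocyte genes are at -4.64 and -4.29.

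The library labelled male 5 gave a different picture when it was compared within its own scan session. Females 4 and 8 minus this library gave a median member difference of -0.12, with 17 of 64 above 0, and no member passed in limma (background 0%) or had an unadjusted p under 0.05. In session 1, females 7 and 9 minus male 9 gave 2.35 for aurkb, 2.19 for plk1, 1.72 for cdk1 and 2.43 for kif23. In session 3 the same genes were at -0.37, -0.48, -0.39 and 0.11. Each session holds a single fish labelled male, so fish and session cannot be told apart here.

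**Figure D5:**
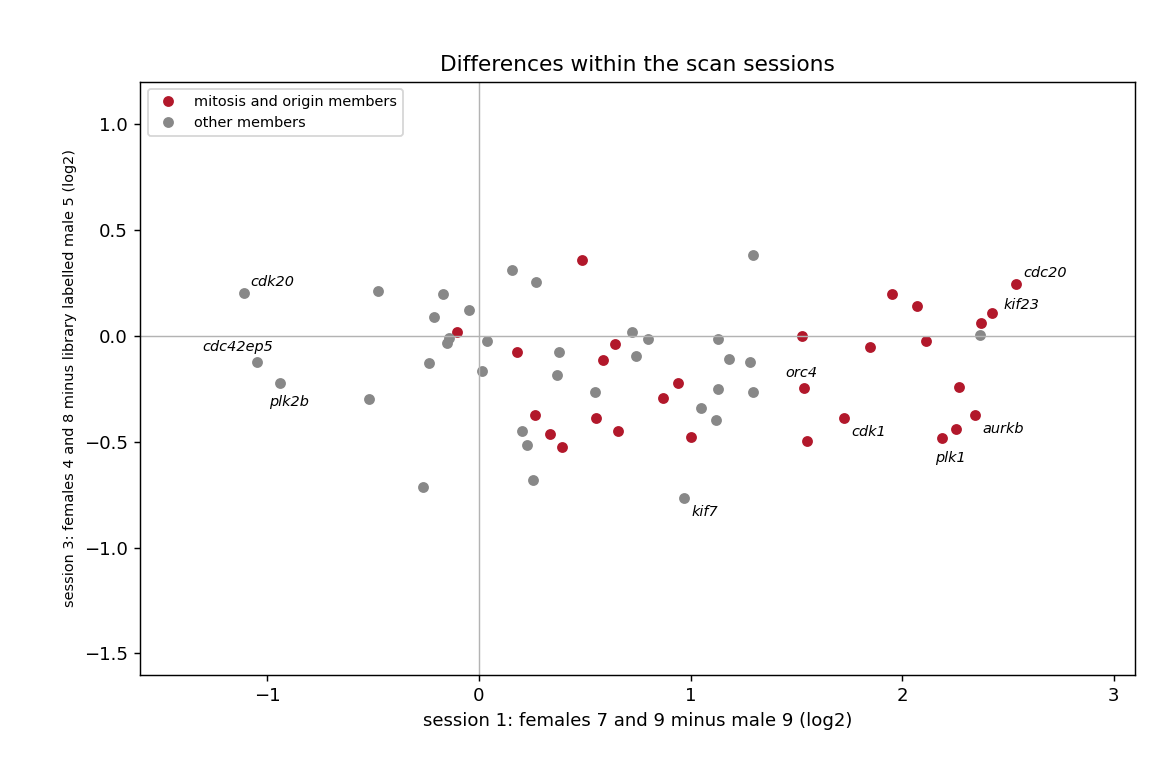
Difference of each tested member within 2 scan sessions: females 7 and 9 minus male 9 along the x axis, females 4 and 8 minus the library labelled male 5 along the y axis, both in log2; red points are members of mitosis and origin roles. Values along x reach 2.54 (cdc20), while those along y stay between -0.77 (kif7) and 0.38.

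Genes of the same processes outside the naming rule were read from 5 further lists. Of the DNA replication genes (40 listed, 29 tested), 19 were higher in females than in males 8 and 9 and none lower, with a median of 1.35. For this and the next 4 lists, the background is 13.2% of probes and 19.2% of named genes higher. The ribonucleotide reductase gene rrm1 was 3.0 ± 0.18 higher and the geminin gene gmnn, an inhibitor of licensing, 2.76 ± 0.20 higher (adjusted p = 0.00104 and 0.00112). Of 18 tested kinetochore, checkpoint and chromosomal passenger genes, 10 were higher and none lower, with a median of 1.12. They included birc5b, the survivin partner of Aurora B, at 3.52 ± 0.31, and ndc80, of the outer kinetochore, at 1.79 ± 0.15 (adjusted p = 0.00162 and 0.00155).

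Spindle and cytokinesis genes gave 10 higher of 21 tested, none lower, and a median of 0.77. The highest was wee2, whose mammalian counterpart encodes an oocyte kinase that holds Cdk1 inactive, at 3.36 ± 0.27 (adjusted p = 0.00151). Condensin and cohesin genes gave 6 higher of 17 (median 0.58), among them the condensin subunit gene smc4 at 2.81 ± 0.36. Further genes of the anaphase-promoting complex gave 5 higher of 9 (median 1.22), among them fbxo5, which encodes an inhibitor of the complex, at 3.18 ± 0.18 (adjusted p = 0.00365 and 0.00104). With all 7 fish 0 genes of these 5 lists passed in limma. At an unadjusted p under 0.05 there were 6, 6, 3, 3 and 3 in the order just given, against 6.72% of probes and 9.57% of named genes. The genes named here were chosen after their values were seen.

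Markers of other cells moved along the same split. Of 13 tested egg coat and oocyte markers, 12 were higher in the females than in males 8 and 9, and none lower. Over all named genes these shares were 19.2% and 11.8%. The median difference of these markers was 4.67, wider than any member's. This list also led to the comparison without the library labelled male 5, so the count is no independent test. With all 7 fish none of them passed, and 5 had an unadjusted p under 0.05 in limma, against 9.57% of named genes. All 3 yolk precursor genes, made in the liver of females, were higher as well, with medians of 1.70 to 2.97 in the females, 1.65 in the library labelled male 5, and -1.69 and -2.10 in males 8 and 9. Genes of male germ cells and sperm went the other way: 5 of 6 were lower, with medians of 0.01 to 0.52 in the females, 0.07 in the library labelled male 5, and 2.31 and 2.50 in males 8 and 9. Skeletal muscle genes had medians of 0.27 to 2.53 in the females, -0.05 in the library labelled male 5, and 4.39 and 3.67 in males 8 and 9, with 3 of 6 lower in females. Of 5 brain and nerve genes 3 were lower, with medians of 0.01 to 0.53 in the females, 0.17 in the library labelled male 5, and 0.74 and 1.24 in males 8 and 9. The part that the makeup of the body had in the members' differences was not tested.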

How the data were processed

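Whole-animal RNA of 7 zebrafish was measured, 1 array a fish. Per the file headers, spots were read with Agilent Feature Extraction 10.5.1.1; per the labels, Cy5 marked the fish and Cy3 the reference. The labels name total RNA, but their labelling protocol describes DNA, so how the RNA was labelled is not given in the sources used here. The deposited scanner files hold the intensity of each spot on a linear scale, with its local background. The deposited value table is in log10, and 0 of its values differed from the LogRatio that Feature Extraction wrote (Cy5 over Cy3), so scale and direction are known; whether the authors centred values later is not given in the sources used here.

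The median signal, which the files hold, was corrected by normexp (offset 50) and normalized by loess within each array to log2 ratios, with 1417 control spots at no weight and 98 outlier spots left out. No member spot was saturated in Cy5. Probes were named by RefSeq accession (16568 of 43603) in a gene table of a newer assembly, so no coordinates are given, and promoter motifs were not analysed here. Tests used limma 3.58.1 in R 4.3.3 over all 22703 tested probes, two-sided, with differences as female minus male and p-values adjusted by Benjamini-Hochberg, and the method was tested on simulated data. A bound ("at least") sets the females' mean Cy5 against the higher of the dim probe's own signal and the lowest signal well above background on each array. For the members printed the probe's own signal was the higher. The Cy5 signals for the bound were normalized together with Cy3, so they still depend on the reference, and the bound is open to dye bias.

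Members, lists and roles were chosen with earlier results of these data known. Named genes are 22 core genes (16 on the array), the 10 largest differences each way among those that passed without overlap, and the 2 brightest probes of each role: 31 in all. Other processing choices were tried (see the closing section). Fish numbers shared by the sexes (8 and 9) only name fish: deviations from the sex means correlated at -0.133 for number 8 and 0.427 for number 9.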

Additional observations from a re-analysis of the deposited data

Results flagged for a closer look

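For cdc20, female 8 lay far from the other females: 1.90, against -0.22, 0.02 and 0.11 in females 4, 7 and 9 on the log2 ratio scale. The gap to the nearest female took up 0.841 of the range (0.8413), above Dixon's critical value. Of 29 named genes tested this way with 4 female values, 1 stood out, and chance gives about 1 in 20. The gap was seen on 1 probe: on the other tested probes for cdc20, female 8 was at -0.56 and -1.03, within the range of the other females.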

How the results depend on the processing

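With all 7 fish 0 members passed as the values were first processed. The count was 24 with array quality weights (weight 0.18 for the library labelled male 5), where 17.7% of all probes passed. It was 26 with the fish number as a replicate block, where 18% of all probes passed. That block leaves only females 8 and 9 against males 8 and 9. Scan session 1 holds only females 7 and 9 and male 9, and its median difference was 0.66. Under the other alternatives the count was 0. Leaving out 1 fish gave 0 to 35 calls, 35 without the library labelled male 5. The median difference, 0.47, became 1.105 with processed signals, 1.21 with median centring, 1.105 with the deposited table, 0.89 with the replicate block, 0.26 with the session block, 0.28 with the position block, 0.26 to 0.85 with 1 fish left out, and reversed to -0.12 within scan session 3.

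Without the library labelled male 5, median centring gave 10 calls, 10 higher and 0 lower, with the median of all probes at 0.24 against -0.05 and 678 probes higher and 30 lower against 2999 and 2758. The session block gave 21 calls (19 higher), the replicate block 26 (24 higher, 2 lower), and the position block 0 (0 higher, 0 lower), where female 8 and male 9 are the only fish of both sexes that share a position. With only probes bright on all 7 arrays, 1 member was lower. The median difference, 0.85, became 1.73 with processed signals, 1.69 with median centring, 1.73 with the deposited table, 1.13 with Cy5 alone, 0.67 without the filter, and 0.66 both with the session block and within session 1. Leaving out 1 fish gave 17 to 30 calls, 16 to 28 higher, 1 to 2 lower and medians of 0.68 to 0.92. With 1 female left out, 18.5% to 21.2% of all probes passed. The cause of these changes was not tested. For the named genes, no alternative reversed a called direction. Low signal limits the 13 untested members.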
